A study of Mus musculus with 9 samples.

Results

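The 10 genes described here belong to MHC class I antigen presentation, and were followed in mouse alveolar macrophages, phagocytes that live in the air sacs of the lung, with and without the von Hippel-Lindau gene Vhl. They were chosen by name: the class I heavy chain genes H2-K1 and H2-D1, the light chain gene B2m, the peptide transporter genes Tap1 and Tap2, the tapasin gene Tapbp, the immunoproteasome subunit genes Psmb8, Psmb9 and Psmb10, and the transactivator gene Nlrc5. All 10 were among the 12003 genes of the table. In Vhl knockout macrophages the class I chains did not pass the test, Nlrc5 fell to 28.7% of its control mean, Psmb10 fell to 73.2%, and Tap2 rose to 115%. The rise of Tap2 did not pass against Cre controls alone, and its call against both controls was lost when knockout library 1 was left out.

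The knockouts were Vhl(flox/flox) / CD11c (cre/+), in which Cre recombinase under the CD11c promoter deletes loxP-flanked Vhl alleles in cells that express this integrin, so the deletion is not restricted to alveolar macrophages. Cre controls were Vhl(+/+) / CD11c (cre/+), with the same Cre and intact Vhl. Floxed controls were Vhl(flox/flox) / CD11c (+/+), with the floxed alleles and no Cre. All mice had a C57BL/6 background, were 8 to 12 weeks old and sex-matched, and were untreated. Each library came from lavage cells of 5 to 7 mice, pooled and enriched with beads against CD11c, and there were 3 pools per genotype, so p-values measure the spread between pools.

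Class I molecules show peptides from inside the cell to CD8+ T cells and, through their presence, restrain natural killer cells. Proteasomes cut cytosolic proteins into peptides, the TAP transporter carries the peptides into the endoplasmic reticulum, and tapasin helps load them onto the heavy chain and beta-2 microglobulin. Interferon-gamma raises most genes of this route, exchanges the catalytic subunits of the proteasome core for immunosubunits, and induces NLRC5, which works at class I promoters together with RFX, CREB family and NF-Y factors.

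Values are normalized reads, meaning read counts multiplied by 1 factor per library, with no correction for gene length. The libraries held 18201116 to 25861174 reads. Vhl itself was at 2.02, 2.14 and 2.52 normalized reads in knockouts, against 24.03, 21.9 and 25.3 in Cre controls and 21.04, 14.9 and 18.4 in floxed controls. All 15 alveolar macrophage marker genes looked for were measured, at 41068 to 53863 normalized reads in sum in knockouts, 31387 to 36566 in Cre controls and 32420 to 36657 in floxed controls. Chil3 alone made up 25432 to 38057 of these sums in knockouts, 15661 to 18477 in Cre controls and 17355 to 20336 in floxed controls, and the other 14 markers summed to 15636 to 16731 in knockouts, 15726 to 18483 in Cre controls and 14484 to 16321 in floxed controls, which overlap. Of the 15 markers limma called 5 higher in knockouts, among them Fabp4 (log2 fold change 1.17) and Fabp1 (1.04), and 3 lower, namely Krt79 (-1.10), Siglecf (-0.58) and Car4 (-0.43), while Lpl (-0.18) and Cd9 (-0.08) did not pass. Over all genes 19.7% were called higher and 20.2% lower in the same comparison, knockouts against both controls. Library 1 of each genotype had the highest neutrophil marker sum of its group (404 against 138 and 138 in knockouts, 325 against 94.3 and 103 in Cre controls, 666 against 200 and 210 in floxed controls).

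To show the control regions behind the members, RefSeq promoters (GRCm38.p6) were matched to 8 of the 10 genes. The class I chain promoters carry the SXY arrangement at which NLRC5 acts with its partners, and Psmb10 is the subunit gene that fell, so these 4 are printed, each as the 250 bases before the start site, for H2-K1 from the more upstream of its RefSeq starts. Capitals mark matches, on either strand, to CCAAT (the core of the Y box, bound by NF-Y), TGACG (the core of a CREB family site and of the X2 box), GAAANNGAAA (an interferon-stimulated response element), TTCNNNGAA (a gamma-activated site), GGGNNNTTCC (an NF-kappaB site) and ACGTG (the core of the element bound by hypoxia-inducible factors, the transcription factors that VHL marks for degradation).
H2-K1, chr17:34000348-34000597, minus strand: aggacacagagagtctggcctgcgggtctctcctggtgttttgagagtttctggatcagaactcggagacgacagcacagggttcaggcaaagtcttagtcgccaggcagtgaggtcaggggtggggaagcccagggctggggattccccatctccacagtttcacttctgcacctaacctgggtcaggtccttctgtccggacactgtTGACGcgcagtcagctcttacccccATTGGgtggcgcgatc
H2-D1, chr17:35262844-35263093, plus strand: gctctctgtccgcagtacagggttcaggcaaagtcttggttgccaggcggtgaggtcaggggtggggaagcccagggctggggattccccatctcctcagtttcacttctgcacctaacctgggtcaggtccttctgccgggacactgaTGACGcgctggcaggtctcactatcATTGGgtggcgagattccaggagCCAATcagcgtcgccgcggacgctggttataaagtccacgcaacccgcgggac
B2m, chr2:122147437-122147686, plus strand: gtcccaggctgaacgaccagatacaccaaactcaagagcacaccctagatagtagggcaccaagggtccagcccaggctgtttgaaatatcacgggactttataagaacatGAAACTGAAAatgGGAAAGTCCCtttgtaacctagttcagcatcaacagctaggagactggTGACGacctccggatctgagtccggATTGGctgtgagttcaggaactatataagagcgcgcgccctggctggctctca
Psmb10, chr8:105938393-105938642, minus strand: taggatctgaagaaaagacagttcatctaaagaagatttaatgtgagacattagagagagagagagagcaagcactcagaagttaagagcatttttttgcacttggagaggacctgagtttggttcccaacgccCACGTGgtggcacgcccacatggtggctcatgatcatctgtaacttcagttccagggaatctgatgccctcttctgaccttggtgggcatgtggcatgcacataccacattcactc

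In these 3 class I chain promoters, TGACG was followed after 20 bases by ATTGG, which is CCAAT on the other strand. The stretch starts 41 bases before the start site in H2-K1, 101 in H2-D1 and 78 in B2m. Over windows of 300 bases, 31 of 32544 RefSeq mouse promoters (0.0953%) hold this spacing, which was noticed in the members and then counted. B2m also holds an interferon-stimulated response element match, a motif in 3.45% of promoters, and an NF-kappaB match, in 5.56%. The capitals of Psmb10 are ACGTG matches on both strands that overlap each other, a motif in 19.7% of promoters. Psmb8 holds a gamma-activated site match (8.33% of promoters), 97 bases before its start. The promoters of Tap1 and Psmb9, which lie head to head, cover largely the same DNA (chr17:34187306-34187555 and chr17:34187331-34187580) and each hold TGACG and CCAAT matches (20.9% and 37.4% of promoters) without the 20-base spacing, and Tapbp holds CCAAT matches alone. A match is a run of letters and does not show that a factor binds. Only these fixed patterns were searched, so sites with other letters stay in lower case. The lack of a match, as for NF-kappaB and interferon elements in H2-K1 and H2-D1, does not show that a promoter lacks such a site.

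The members differed widely in level. Per kilobase of transcript, B2m was highest in knockouts at 1951 normalized reads per kilobase, followed by H2-D1 at 775, H2-K1 at 471, Tapbp at 111, Psmb8 at 63.4, Psmb10 at 45.7, Tap2 at 31.0, Psmb9 at 26.8 and Tap1 at 18.6. Nlrc5 was the lowest member in each genotype, at 0.615 per kilobase in knockouts, 1.86 in Cre controls and 2.43 in floxed controls. No neighbours in the knockout order overlapped between libraries. In both control groups the order differed at 2 places: Psmb10 (63.8 per kilobase in Cre controls, 61.2 in floxed controls) stood beside Psmb8 (63.0 and 60.6), and Psmb9 (29.0 and 28.3) stood beside Tap2 (27.4 and 26.3), and both pairs overlapped.

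**Figure D1:**
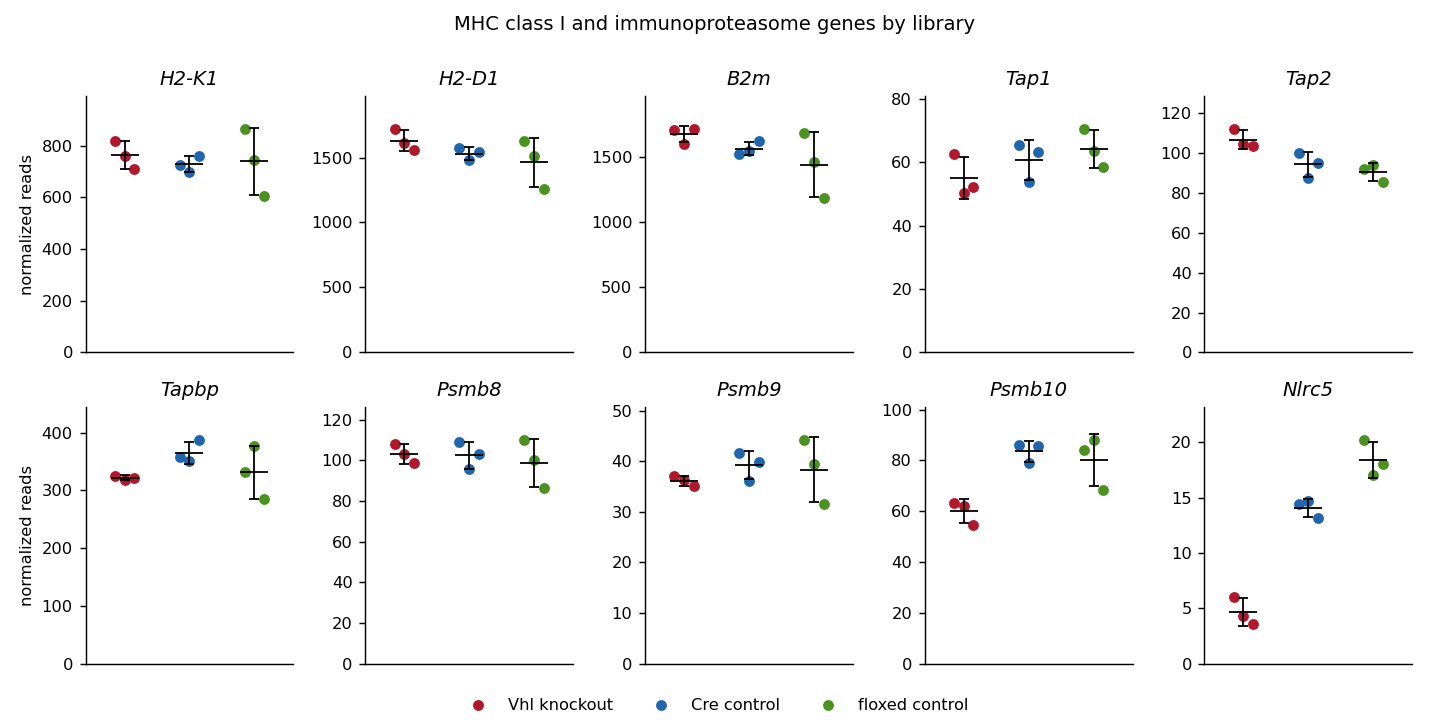
Normalized reads of each member (y axes, all starting at 0) in every library; points are the 3 pools of Vhl knockouts (red), Cre controls (blue) and floxed controls (green), and black bars are the mean ± SD. The knockout points of Nlrc5, at 3.599 to 6.05, and of Psmb10, at 54.5 to 63.2, lie below all control points, those of Tap2 lie above, and the other 7 members overlap.

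Against both controls together, limma called 1 of 10 members higher and 2 lower at an adjusted p under 0.05, and 7 were not called. Across all genes 19.7% were called higher and 20.2% lower, so the members' counts are close to the background. The median log2 fold change was -0.02 over the 10 members and -0.00 over all genes, whose quartiles were -0.20 and 0.19. All 3 knockout libraries lay above all 6 controls for 1 member and below for 2, and overlapped them for 7, while 19.3% of all genes lay above and 18.5% below without overlap. Against floxed controls alone 1 member was called higher and 2 lower (background 17.5% and 16.8%). Against Cre controls alone limma called 0 higher and 2 lower (background 16.3% and 17.7%); at an unadjusted p under 0.05 limma had 1 higher, Tap2, which DESeq2 called and edgeR did not. These comparisons share the knockout libraries. Without the 3 libraries numbered 1, limma called 0 members higher and 2 lower against both controls.

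**Figure D2:**
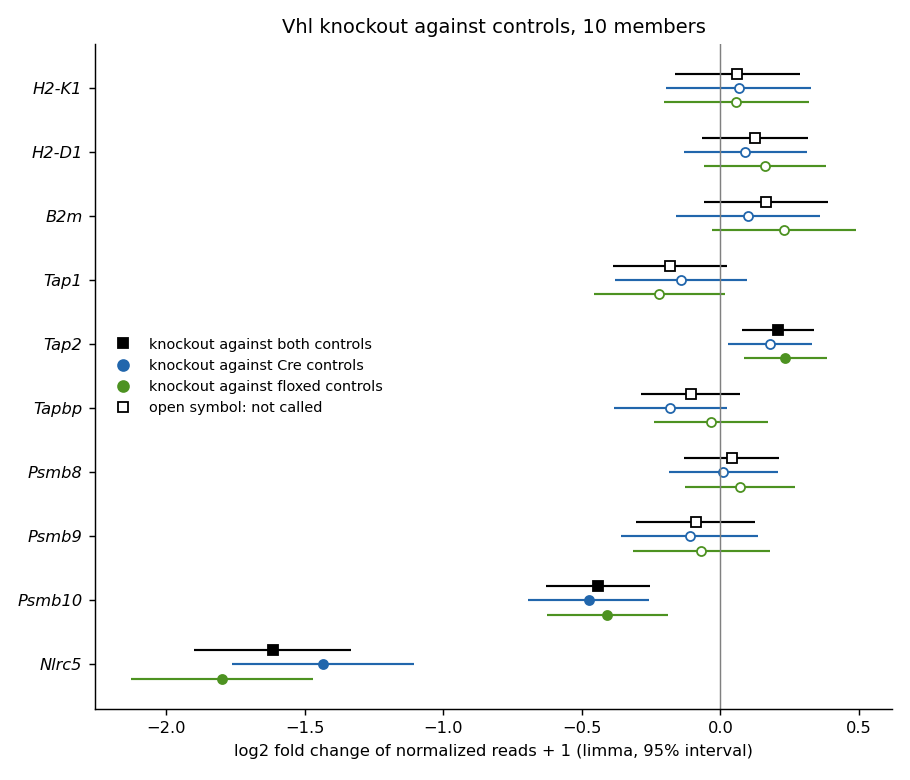
Log2 fold changes of normalized reads + 1 (x axis) for the 10 members (y axis), with 95% intervals from limma, for Vhl knockouts against both controls (black squares), Cre controls (blue) and floxed controls (green); open symbols were not called. Nlrc5 lies between -1.80 and -1.43 and Psmb10 between -0.48 and -0.41 in the 3 comparisons.

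Nlrc5 (ENSMUSG00000074151, chromosome 8, 94434356 to 94527272, plus strand, GRCm38) encodes the NOD-like receptor family protein that acts as the transactivator of class I genes. It was at 6.05, 4.34 and 3.599 normalized reads in knockouts, against 14.4, 14.6 and 13.1 in Cre controls and 20.2, 17.0 and 18.0 in floxed controls. Every knockout library lay below every control, and the groups did not overlap. The mean was 4.66 ± 1.26 in knockouts (SD, n = 3), 14.1 ± 0.834 in Cre controls and 18.4 ± 1.62 in floxed controls. The log2 fold change against both controls was -1.61 (SE 0.127, 95% interval -1.90 to -1.33, limma adjusted p = 7.30e-06), and 0.725% of all genes had a lower one. It was -1.43 against Cre controls (limma adjusted p = 5.95e-05) and -1.80 against floxed controls (limma adjusted p = 1.31e-05). The gene rested on 85 to 375 reads per library, and no other measured gene shares its 61-base windows.

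Markers of dendritic cells, which carry CD11c and can be present among lavage cells, were lower in the knockouts too. Limma called 12 of the 15 measured lower in knockouts and 1, Cd83, higher, with a median log2 fold change of -1.02. Over all genes 20.2% were called lower and 19.7% higher. Ccr7, the chemokine receptor of migrating dendritic cells, was at 3.30, 4.90 and 4.72 normalized reads in knockouts, against 26.0, 69.8 and 61.6 in Cre controls and 42.4, 19.1 and 25.4 in floxed controls. Fscn1, which encodes fascin, an actin-bundling protein of mature dendritic cells, fell (log2 fold change -2.91, limma adjusted p = 7.62e-05), as did Cacnb3 (-2.26) and the transcription factor gene Batf3 (-1.02). The summed level of the list was 849 to 995 in knockouts, 874 to 1170 in Cre controls and 891 to 968 in floxed controls, of which Ly75 alone, which was not called, made up 571 to 720 in knockouts, 540 to 728 in Cre controls and 471 to 616 in floxed controls. Cd24a was not called either (log2 fold change -0.05). No marker of the list was at 0 in any library, and the lowest were Cd209a, at 0.44 to 0.64 in knockouts, and Xcr1, at 0.48 to 0.73. In bulk libraries fewer cells of a type and less RNA per cell cannot be told apart, and the part of these markers in the fall of Nlrc5 was not tested.

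The class I chains did not pass the test. H2-D1 (ENSMUSG00000073411, chromosome 17, 35262730 to 35267499, plus strand) encodes the D heavy chain and was at 1719, 1609 and 1561 normalized reads in knockouts, against 1574, 1479 and 1539 in Cre controls and 1627, 1509.8 and 1257 in floxed controls. In all, 2 knockout libraries lay within the control range and 1 above it. The estimate for H2-D1 was a log2 fold change of 0.13 (95% interval -0.07 to 0.32, limma adjusted p = 0.278). H2-K1 (ENSMUSG00000061232, chromosome 17, 33996017 to 34000347, minus strand), the K heavy chain gene, was at 817, 761 and 708 in knockouts, against 726, 697 and 759 in Cre controls and 864, 746 and 606 in floxed controls. The knockout libraries lay inside the range of the floxed controls. The log2 fold change was 0.06 (95% interval -0.16 to 0.29, limma adjusted p = 0.665). Of the 61-base windows in their transcripts, 5.62% of H2-K1 and 7.76% of H2-D1 also occur in other genes, chiefly H2-Q10 for H2-K1 and H2-Q1 for H2-D1, so a part of their reads had to be divided by the counting program.

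B2m (ENSMUSG00000060802, chromosome 2, 122147686 to 122153083, plus strand) encodes the light chain shared by all class I molecules and was at 1712, 1605 and 1717 normalized reads in knockouts, against 1526, 1550.3 and 1625 in Cre controls and 1687, 1461 and 1185 in floxed controls. Of the knockouts, 2 libraries lay above all controls and 1 did not. The log2 fold change was 0.16 (95% interval -0.06 to 0.39, limma adjusted p = 0.226), and without floxed control 1 it was 0.35 against floxed controls, where limma then called it (adjusted p = 0.0266). The widest spread of the chains was among the floxed controls: floxed control 3 was the lowest of the 6 control libraries for 8 of the 10 members, and floxed control 1 the highest for 7.

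Among the transport and loading genes, Tap2 was higher in knockouts by a small margin. Tap2 (ENSMUSG00000024339, chromosome 17, 34203527 to 34216321, plus strand), a chain of the peptide transporter, was at 112, 105 and 104 normalized reads in knockouts, against 100.2, 87.5 and 95.2 in Cre controls and 92.2, 94.0 and 85.6 in floxed controls. All knockout libraries lay above all controls, the nearest being knockout 3 and Cre control 1. Its log2 fold change was 0.21 (SE 0.0582, 95% interval 0.08 to 0.34, limma adjusted p = 0.0177), with 0.23 against floxed controls (limma adjusted p = 0.0222) and 0.18 against Cre controls, which was not called (limma adjusted p = 0.0651). The call against both controls was lost without knockout 1 (0.17, limma adjusted p = 0.0836) and without the 3 libraries numbered 1 (0.20, limma adjusted p = 0.0519); against floxed controls it was also lost without floxed control 3 (0.19, limma adjusted p = 0.0623) and with no scaling factor (0.16, limma adjusted p = 0.0694).

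Tap1 (ENSMUSG00000037321, chromosome 17, 34187553 to 34197225, plus strand), the partner chain of the transporter, was at 62.5, 50.4 and 52.1 normalized reads in knockouts, against 65.3, 53.7 and 63.2 in Cre controls and 70.4, 63.5 and 58.4 in floxed controls. Knockouts 2 and 3 lay below all controls and knockout 1 lay among them. Tap1 had a log2 fold change of -0.18 (95% interval -0.39 to 0.02, limma adjusted p = 0.148). Tapbp (ENSMUSG00000024308, chromosome 17, 33915899 to 33929292, plus strand), the tapasin gene, was at 326, 317 and 322 in knockouts, against 358, 351 and 387 in Cre controls and 332, 377 and 285 in floxed controls. Its knockout libraries lay below every Cre control and inside the range of the floxed controls, with a log2 fold change of -0.11 (95% interval -0.28 to 0.07, limma adjusted p = 0.314). Tap1 overlaps Psmb9 over 212 bases on the opposite strand and Tapbp overlaps Zbtb22 over 149, and whether reads were counted by strand is not stated in these sources.

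Of the 3 immunosubunits, Psmb10 alone passed the test. Psmb10 (ENSMUSG00000031897, chromosome 8, 105935735 to 105938444, minus strand), the immunosubunit with trypsin-like activity, was at 63.2, 62.1 and 54.5 normalized reads in knockouts, against 86.2, 79.0 and 85.7 in Cre controls and 84.2, 87.9 and 68.4 in floxed controls. All knockout libraries lay below all controls, with floxed control 3 the nearest. The mean was 59.9 ± 4.71 in knockouts (SD, n = 3), 83.6 ± 4.04 in Cre controls and 80.2 ± 10.4 in floxed controls. The log2 fold change was -0.44 (SE 0.0846, 95% interval -0.63 to -0.25, limma adjusted p = 0.00232), with -0.48 against Cre controls (limma adjusted p = 0.00439) and -0.41 against floxed controls (limma adjusted p = 0.00938). Psmb10 lies outside the MHC region on chromosome 17 that holds Psmb8 and Psmb9, and none of its 61-base windows occur in another gene. The dendritic cell markers given above were lower in the same libraries, and their part in its fall was not tested.

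Psmb8 (ENSMUSG00000024338, chromosome 17, 34197721 to 34201454, plus strand), the immunosubunit with chymotrypsin-like activity, was at 108, 103 and 98.4 normalized reads in knockouts, against 109, 95.7 and 103 in Cre controls and 109.8, 99.9 and 86.2 in floxed controls. Psmb9 (ENSMUSG00000096727, chromosome 17, 34181987 to 34187764, minus strand), which replaces the caspase-like subunit, was at 37.1, 36.3 and 35.1 in knockouts, against 41.5, 36.2 and 39.9 in Cre controls and 44.1, 39.4 and 31.5 in floxed controls. All knockout values of both genes lay inside the control range. The log2 fold change was 0.04 for Psmb8 (95% interval -0.13 to 0.21, limma adjusted p = 0.709). For Psmb9 it was -0.09 (95% interval -0.30 to 0.12, limma adjusted p = 0.496).

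Each immunosubunit takes the place of a constitutive subunit in the proteasome core: Psmb8 that of Psmb5, Psmb9 that of Psmb6 and Psmb10 that of Psmb7. Psmb6 rose (121 ± 1.57 normalized reads in knockouts, 89.3 ± 5.29 in Cre controls, 79.0 ± 9.51 in floxed controls; log2 fold change 0.53, SE 0.0744, limma adjusted p = 3.602e-04). Psmb7 fell, at 72.4 ± 3.32 in knockouts, 92.8 ± 4.12 in Cre controls and 85.1 ± 6.62 in floxed controls (log2 fold change -0.29, limma adjusted p = 0.00377). Psmb5 fell against both controls (log2 fold change -0.34, limma adjusted p = 0.0116) and did not pass against floxed controls alone (-0.22, limma adjusted p = 0.126). Since 46.2% of the 61-base windows of Psmb5 also occur in other genes, chiefly Gm3375, its level and its ratio are uncertain, and Psmb7 overlaps Nek6 on the opposite strand over 405 bases.

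The ratios of immunosubunit to constitutive subunit went in opposite directions. Psmb8 (log2 fold change 0.04) and Psmb9 (-0.09) were themselves not called, while Psmb5 (-0.34) was called lower and Psmb6 (0.53) higher. Of single genes, 19.3% had all 3 knockout libraries above all 6 controls and 18.5% below. No such share was computed for ratios. The Psmb8 to Psmb5 ratio, per kilobase, was 0.688, 0.686 and 0.720 in knockouts, against 0.543, 0.455 and 0.505 in Cre controls and 0.602, 0.514 and 0.597 in floxed controls. All knockout libraries were above all controls, 1.31-fold on the geometric mean (log2 difference 0.39, two-sided exact permutation test of 3 against 6 libraries p = 0.0238, 0.0357 adjusted over the 3 ratios). The Psmb9 to Psmb6 ratio was 0.179, 0.176 and 0.174 in knockouts, against 0.295, 0.231 and 0.255 in Cre controls and 0.304, 0.280 and 0.273 in floxed controls. All knockout libraries were below all controls, at 0.649-fold (log2 difference -0.62, exact permutation p = 0.0238, adjusted 0.0357). The Psmb10 to Psmb7 ratio was 0.753, 0.801 and 0.649 in knockouts, against 0.826, 0.719 and 0.852 in Cre controls and 0.867, 0.852 and 0.774 in floxed controls, and the groups overlapped (log2 difference -0.15, exact permutation p = 0.143). The smallest p that 3 against 6 libraries allow is 0.0238, so leaving out any library takes both called ratios past the threshold (adjusted p 0.0536 to 0.107) with log2 differences of 0.34 to 0.42 and -0.67 to -0.59.

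**Figure D3:**
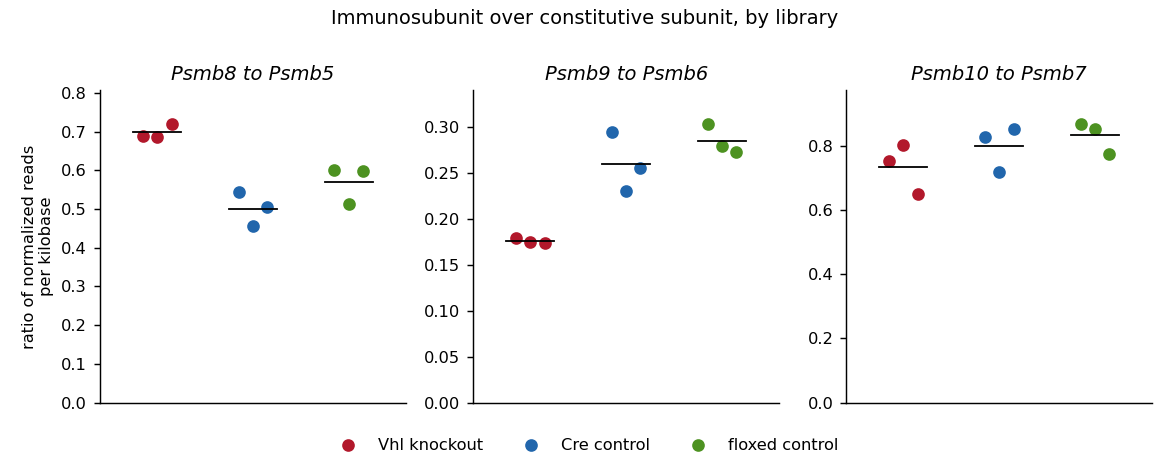
Ratio of normalized reads per kilobase of each immunosubunit over the constitutive subunit it replaces (y axes from 0) in every library; points are pools of Vhl knockouts (red), Cre controls (blue) and floxed controls (green), and lines are group means. Psmb8 to Psmb5 is at 0.686 to 0.720 in knockouts, above all controls, and Psmb9 to Psmb6 is at 0.174 to 0.179, below all controls.

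Most other proteasome genes tested were lower in knockouts. Over all genes 20.2% were called lower and 19.7% higher against both controls. Of 18 genes of the 19S regulatory particle, which recognises and unfolds ubiquitinated proteins, 16 were called lower and 0 higher (median log2 fold change -0.28); no gene of it was higher at an unadjusted p under 0.05 in limma, and edgeR and DESeq2 also called 0 higher. The ATPase gene Psmc2 was at 73.8, 70.9 and 69.2 normalized reads in knockouts, against 99.6, 112 and 109 in Cre controls and 97.7, 100.2 and 90.8 in floxed controls (log2 fold change -0.50, SE 0.0559, limma adjusted p = 7.85e-05). Psmc5 (-0.49), Psmc4 (-0.42) and Psmd13 (-0.34) also fell, while Psmd8 (0.11, limma adjusted p = 0.206) and Psmd12 (-0.17, limma adjusted p = 0.0594) did not pass. Of 11 further genes of the 20S core, 7 were called lower and 0 higher (median -0.28, 0 higher also at an unadjusted p under 0.05 and by edgeR and DESeq2), among them Psma5 (-0.46), Psma4 (-0.36), Psmb4 (-0.32) and Psmb3 (-0.31). Psma1 (-0.15) and Psmb1 (-0.14) did not pass. Without floxed control 3, which was low for these genes, 11 of the 11 were called lower. The number of calls differed by control group. Against floxed controls alone 11 of the 18 19S genes and 4 of the 11 core genes were called lower (16.8% of all genes). Against Cre controls alone it was 17 and 8 (17.7% of all genes). In Cre controls against floxed controls 0 genes of either list were called, with median log2 fold changes of 0.139 and 0.135. At an unadjusted p under 0.05 limma had 7 of the 18 19S genes and 2 of the 11 core genes higher in Cre controls, and 0 lower. Every gene of both lists had a positive log2 fold change between the controls, the lowest being Psmd14 (0.057).

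The activator and assembly list of 10 genes held 5 called lower and 0 higher (median -0.18, 0 higher also at an unadjusted p under 0.05 and by edgeR and DESeq2). Over all genes 20.2% were called lower and 19.7% higher. Psme2, a subunit of the interferon-inducible PA28 cap, was at 80.0, 75.1 and 75.2 normalized reads in knockouts, against 107, 108 and 116 in Cre controls and 100.1, 107 and 88.3 in floxed controls, with no overlap (log2 fold change -0.43, SE 0.0642, limma adjusted p = 5.09e-04). Its partner Psme1 also fell (-0.19, limma adjusted p = 0.0383), as did the assembly chaperone gene Pomp (-0.40), Psme4 (-0.39) and Psme3 (-0.17), while Psmf1 (-0.10) and Psmg2 (-0.05) did not pass. Only 3 of the list were called lower when knockout 2, knockout 3, Cre control 2, Cre control 3 or floxed control 2 was left out. Against floxed controls alone 3 were called lower, and against Cre controls alone 4 (16.8% and 17.7% of all genes).

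**Figure D4:**
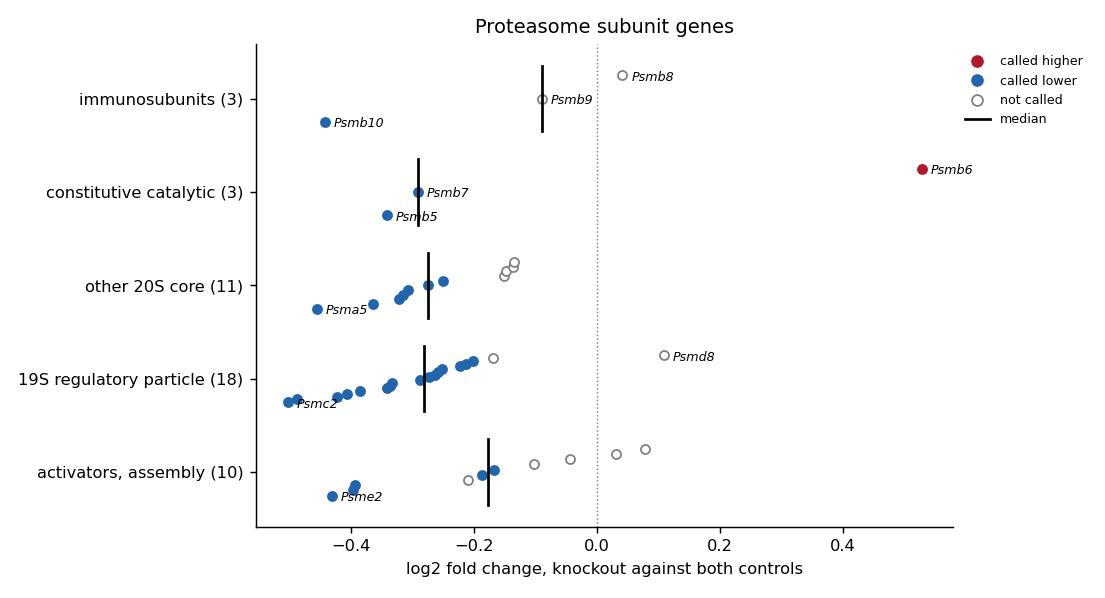
Log2 fold change of each measured proteasome gene (x axis, limma, Vhl knockouts against both controls) by gene group (y axis, number of genes in brackets); filled red points were called higher, filled blue lower, open grey not called, and vertical lines are medians. In the 19S particle 16 of 18 points are called lower, and Psmb6 is the called point on the right.

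The other class I and class I-like chains split in both directions. Of 15 measured of 20 looked for, 4 were called higher and 5 lower (median -0.20), where 19.7% of all genes were called higher and 20.2% lower. The Qa-2 gene H2-Q7 was at 17.2, 13.4 and 10.996 normalized reads in knockouts, against 25.9, 25.1 and 22.6 in Cre controls and 46.9, 26.5 and 34.5 in floxed controls (log2 fold change -1.05, SE 0.171, limma adjusted p = 8.78e-04). All knockouts lay below all controls. H2-Q6, its near copy, was at 14.8, 11.7 and 7.20 in knockouts, against 24.9, 25.5 and 22.9 in Cre controls and 43.3, 21.2 and 24.5 in floxed controls (log2 fold change -1.21), and is named after its values were seen. Of the 61-base windows 24.7% of H2-Q6 and 21.7% of H2-Q7 occur in other genes, so the split between them is uncertain. H2-T24 (-0.64, limma adjusted p = 0.00130) and Cd1d1, which presents lipids to NKT cells (-0.35, limma adjusted p = 0.00258), also fell.

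H2-T23, which encodes Qa-1, the ligand of the inhibitory natural killer receptor NKG2A, rose. It was at 222, 197 and 186 normalized reads in knockouts, against 154, 153 and 158 in Cre controls and 166, 145 and 129.6 in floxed controls (log2 fold change 0.42, SE 0.0803, limma adjusted p = 0.00240). H2-M3, which presents formylated bacterial peptides, was at 41.4, 38.5 and 34.0 in knockouts, against 29.4, 22.3 and 26.9 in Cre controls and 30.8, 24.7 and 24.8 in floxed controls (log2 fold change 0.51, limma adjusted p = 0.00391), and is also named after its values were seen. All knockout libraries were above all controls for both. H2-T22 (-0.11, limma adjusted p = 0.240) and H2-Q4 (-0.16, limma adjusted p = 0.0567) did not pass. Without knockout 2, 2 of the list were called higher.

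In the peptide loading and trimming list, 1 of 16 measured genes was called higher and 5 lower (median -0.17; 19.7% and 20.2% of all genes). Against floxed controls alone 2 of the list were called lower, and against Cre controls alone 5 (16.8% and 17.7% of all genes). Npepps, a cytosolic aminopeptidase gene, was at 154, 155 and 163 normalized reads in knockouts, against 80.9, 93.5 and 86.1 in Cre controls and 81.6, 82.7 and 84.4 in floxed controls (log2 fold change 0.88, SE 0.0537, limma adjusted p = 1.07e-06). Erap1, the aminopeptidase that trims peptides in the endoplasmic reticulum, was at 96.5, 96.6 and 99.96 in knockouts, against 127, 132 and 135 in Cre controls and 122, 134 and 124 in floxed controls (log2 fold change -0.39, SE 0.0477, limma adjusted p = 1.38e-04). Both genes were without overlap. Lap3 (-0.34) and Tpp2 (-0.27), peptidases of the cytosol, also fell, while the chaperone genes Calr (-0.19, limma adjusted p = 0.129) and Pdia3 (-0.20, limma adjusted p = 0.0731), which assist tapasin, did not pass. Leaving out knockout 2, knockout 3, Cre control 3 or floxed control 2 left 3 called lower, and without knockout 1, or without the 3 libraries numbered 1, 2 were called higher. Erap1 overlaps the measured gene Cast on the opposite strand over 834 bases.

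Of 22 genes that control class I transcription or carry the interferon-gamma signal, 3 were called higher and 7 lower (median -0.03). Over all genes the shares were 19.7% and 20.2%. Irf1, an interferon regulatory factor gene, was at 43.0, 26.9 and 19.5 normalized reads in knockouts, against 50.9, 34.7 and 43.8 in Cre controls and 55.7, 33.3 and 41.6 in floxed controls, and did not pass (log2 fold change -0.57, limma adjusted p = 0.0761). Library 1 was the highest of its group for Irf1 in all 3 genotypes. Stat2 (-0.53) and Irf8 (-0.34), a macrophage transcription factor gene, fell, and Jak1 (-0.07) and Rela (0.10) did not pass.

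Among the partners of NLRC5 at class I promoters, Rfxap rose: 14.3, 13.9 and 13.7 normalized reads in knockouts, against 9.26, 8.89 and 8.99 in Cre controls and 10.2, 9.88 and 9.62 in floxed controls (log2 fold change 0.51, SE 0.0670, limma adjusted p = 2.18e-04). Ciita, the class II transactivator and a relative of Nlrc5, was at 123, 129 and 135 in knockouts, against 17.5, 9.16 and 13.7 in Cre controls and 26.7, 11.7 and 21.6 in floxed controls (log2 fold change 2.96, SE 0.238, limma adjusted p = 8.25e-06). Nlrc5 and Ciita thus lay on opposite sides of their controls in all 3 knockout libraries. Ciita overlaps Dexi on the opposite strand over 329 bases. Of the 11 MHC class II genes, Ciita included, 9 were called higher and 1 lower (median 2.55), against 19.7% and 20.2% of all genes. H2-Eb1 was at 967, 928 and 888 in knockouts, against 176, 109 and 124 in Cre controls and 273, 130.4 and 178 in floxed controls. H2-Ob (log2 fold change 2.70) and H2-Aa (2.81) rose as well, and H2-DMa did not pass (log2 fold change 0.09, limma adjusted p = 0.583).

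Of 30 measured genes of the type I interferon receptor and response, 21 were called lower and 0 higher (median -0.53). Over all genes 20.2% were called lower and 19.7% higher. At an unadjusted p under 0.05 limma had 1 of the list higher, Irf3, and edgeR and DESeq2 called 0 higher. Ifit2, which binds viral RNA, was at 1.24, 2.09 and 1.40 normalized reads in knockouts, against 7.22, 8.53 and 11.2 in Cre controls and 6.90, 8.04 and 5.43 in floxed controls (log2 fold change -1.77, SE 0.166, limma adjusted p = 2.33e-05). Ifit3 (-1.65), the antiviral GTPase gene Mx1 (-1.46) and the guanylate-binding protein gene Gbp3 (-1.31) also fell, and Gbp7 (0.06) and Ifnar2 (-0.07) did not pass. Nlrc5, at -1.61, lay within the range of this list (-1.77 to 0.17), as did every other member except Tap2 (0.21). The lowest of the other members was Psmb10, at -0.44. Without knockout 3, 14 of the list were called lower.

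**Figure D5:**
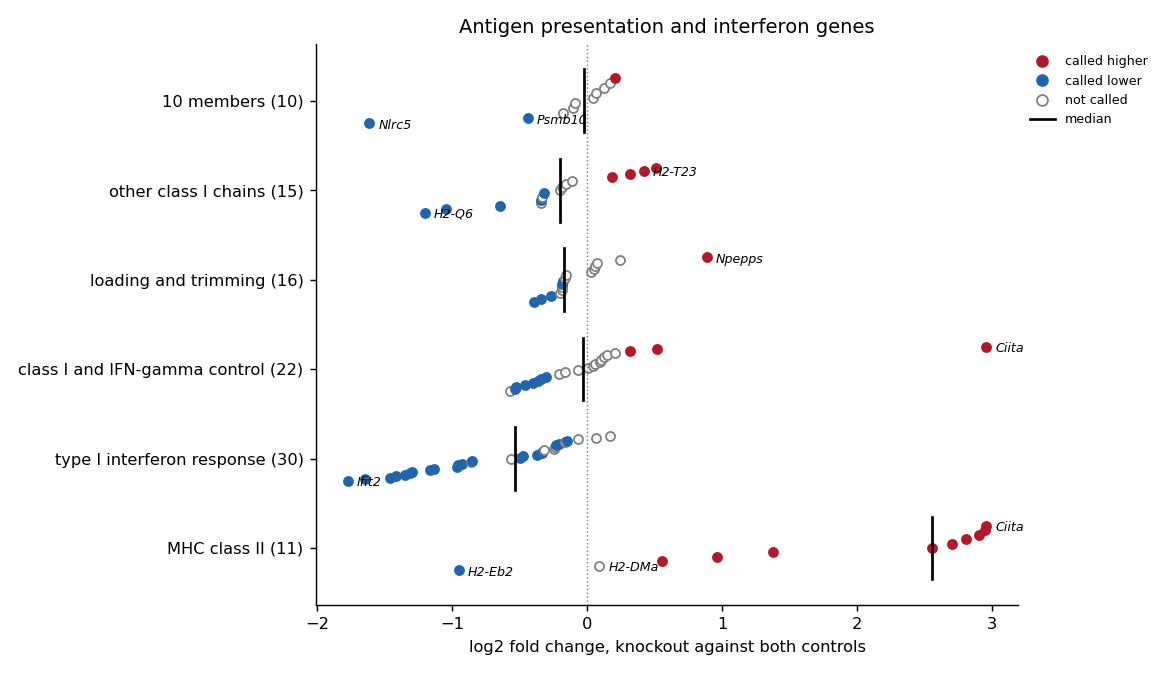
Log2 fold change of each measured gene (x axis, limma, Vhl knockouts against both controls) by gene list (y axis, number of genes in brackets); filled red points were called higher, filled blue lower, open grey not called, and vertical lines are medians. The members' median is -0.02, that of the type I interferon list -0.53 and that of the class II list 2.55.

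Between the control groups, Cre controls against floxed controls, limma called 0 of the 10 members, where 0.167% of all genes (20 of 12003) were called. At an unadjusted p under 0.05 limma had 1 member, Nlrc5, lower in Cre controls (log2 fold change -0.36, 95% interval -0.69 to -0.03, adjusted p = 0.612), and edgeR and DESeq2 called 0. The Nlrc5 values of the 2 control groups did not overlap. This contrast is also the difference between the knockout effects measured against each control.

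Genes were also ranked by how closely their values followed the members over the 9 libraries, by the root mean square difference of centred log2 values among genes averaging at least 20 normalized reads. The mean of the members includes Nlrc5, at a log2 fold change of -1.61 against both controls, and so leans on that gene. The other members lay between -0.44 (Psmb10) and 0.21 (Tap2), and the median of all 10 was -0.02. A ranking without Nlrc5 was not made. Closest to the mean of the 10 members were Ndufb7 (0.0279), a subunit gene of respiratory complex I, Glrx5 (0.0319), a mitochondrial glutaredoxin gene, Ogfr (0.0395), Mdh2 (0.0397), the mitochondrial malate dehydrogenase gene, and Ebp (0.0422), a sterol isomerase gene. Closest to Nlrc5 alone, a ranking added after its values were seen, were Phgdh (0.166), the gene of the first enzyme of serine synthesis, Rac2 (0.174), a GTPase gene of blood cells, the interferon regulatory factor gene Irf5 (0.193), Gca (0.197) and Prom1 (0.201). Irf5 was at 29.5, 30.2 and 28.0 normalized reads in knockouts, against 89.9, 97.997 and 89.1 in Cre controls and 117, 91.1 and 86.8 in floxed controls.

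Markers of further cell types were measured as well. Over all genes 19.7% were called higher and 20.2% lower against both controls. The lymphocyte list held 4 measured of 14, of which 1, Cd2, was called lower (summed 162 to 179 normalized reads in knockouts, 202 to 248.9 in Cre controls and 179 to 200.002 in floxed controls), with Klrb1c at 0 in Cre control 2. Limma called 0 of them higher against both controls, also at an unadjusted p under 0.05, and edgeR and DESeq2 each called 1. Against Cre controls alone limma called 2 of the 4 higher and 1 lower, and against floxed controls alone 0 and 1. In Cre controls against floxed controls 1 was called lower. Cd2 alone made up 158 to 175 of the lymphocyte sums in knockouts, 201 to 247 in Cre controls and 173 to 194 in floxed controls. Neutrophil markers numbered 6, with 1, Mmp8, called higher and 0 lower by limma, edgeR or DESeq2 or at an unadjusted p under 0.05 (summed 138 to 404 in knockouts, 94.3 to 325 in Cre controls and 200 to 666 in floxed controls). In the monocyte and interstitial macrophage list 2 of 11 were called higher and 5 lower (summed 262 to 271 in knockouts, 208 to 231 in Cre controls and 232 to 310 in floxed controls), and in the lung epithelial list 2 of 8 higher and 2 lower (summed 1060 to 1121 in knockouts, 587 to 872 in Cre controls and 586 to 769 in floxed controls). The monocyte and interstitial macrophage counts differed by control group. Against floxed controls alone 1 was called higher and 6 lower (background 17.5% and 16.8%), and against Cre controls alone 2 and 1 (16.3% and 17.7%). Between the controls 0 were called, while 9 were lower in Cre controls at an unadjusted p under 0.05. Ace made up 157 to 177 of the monocyte sums in knockouts, 64.3 to 73.6 in Cre controls and 67.6 to 74.7 in floxed controls. Krt19 made up 723 to 809 of the epithelial sums in knockouts, 341 to 528 in Cre controls and 364 to 375 in floxed controls. Krt19 and Cdh1 were called higher, Epcam and Sftpa1 lower. Scgb1a1, not called, was at 26.5 to 49.2 in knockouts, 97.1 to 134 in Cre controls and 22.5 to 134 in floxed controls. The counts of these lists were sensitive to single libraries: without knockout 3, 1 monocyte and interstitial macrophage marker was called lower, and without knockout 2 neither Cd2 nor Mmp8 was called. Their part in the members' values was not tested.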

How the data were processed

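Poly(A) RNA from 9 libraries, 3 pools in each of 3 genotypes, was sequenced as single reads of 61 bases from RNA with an integrity above 8. The submitters' processing notes name RSEM 1.2.3, cutadapt 1.3, CASAVA 1.8.2 and the build GRCm38; annotation, strand setting and later steps were not given in the sources used here. A single table of 12003 Ensembl genes, with no symbols, was deposited by the authors, and its signal is a whole number of reads times 1 factor per library (100% of values whole within 0.01 read; 1 read is 0.0400 to 0.0565 normalized reads). The table holds genes that reach at least 0.962 in 3 libraries, and rarer transcripts are not analysed here. A sample's group came from its genotype label, and no column was left out (0).

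GENCODE release M21 (GRCm38) gave the symbols, for 11935 identifiers, and the positions. As the values are scaled, limma 3.58.1 in R 4.3.3 was fitted to log2(value + 1), a scale that shrinks fold changes of low genes, with 1 mean per genotype over all 9 libraries, an intensity trend and two-sided tests. P-values were adjusted over all genes (Benjamini-Hochberg), and an adjusted p under 0.05 was called. On the recovered reads, edgeR 4.0.16 called 2358 genes higher and 2399 lower in knockouts against both controls, where limma called 2361 and 2420, and DESeq2 1.42.0 was also run. Levels per kilobase used the principal transcript's length. The fit was tested on simulated data. Same-genotype libraries were checked for duplicates, and none agreed within counting noise. The members and 15 further lists were chosen with earlier results of these data known. From each list up to 4 called genes are named by smallest adjusted p, and up to 2 not called by highest mean; Irf1, Vhl and the constitutive subunits always are. Of this rule's genes, 1 is not reported here, and the monocyte, lymphocyte, neutrophil and epithelial marker lists are mostly given as counts and sums. Alternatives covered pseudocount, filter, scaling, test, trend, replicate block and each library left out, and, added after seeing the data, the 3 libraries numbered 1 left out.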

Additional observations from a re-analysis of the deposited data

How the results depend on the processing

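Nlrc5 and Psmb10 were called lower against both controls, and against each, under all 19 alternatives run (against both controls, log2 fold changes of -1.79 to -1.13 and -0.50 to -0.38). Members called higher numbered 0 against floxed controls with no scaling factor, 1 against Cre controls by DESeq2, and 0 against both controls and against floxed controls without the 3 libraries numbered 1; with single libraries left out they numbered 0 to 1, 0 to 2 and 0 to 1 against both, floxed and Cre controls. These changes are of Tap2 and, in 1 case, B2m. Tap1 was called lower against floxed controls with no scaling factor (-0.29, limma adjusted p = 0.0411) and with the replicate block (-0.22, limma adjusted p = 0.0495).

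Genes called in Cre controls against floxed controls moved most: 8 higher became 25 by DESeq2, 72 without the libraries numbered 1 and 6 to 16 with single libraries left out; 12 lower became 7 with a pseudocount of 5, 6 with a mean of at least 5, 49 by DESeq2, 59 with the replicate block, 75 without the libraries numbered 1 and 7 to 17 with single libraries left out. The cause was not tested.

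Member log2 fold changes changed sign in 23 of 760 estimates (40 member results under each of 19 alternatives), none of them called. With no scaling factor the log2 fold change of H2-K1 was -0.013 against floxed controls, and that of Psmb8 -0.0080 against both and -0.017 against Cre controls. Without the libraries numbered 1, H2-K1 was 0.11 between the controls and Psmb9 0.021 against floxed controls. Single libraries left out gave H2-K1 -0.0060 to 0.12 against both, -0.078 to 0.18 against floxed controls and -0.14 to 0.11 between controls, Psmb8 -0.0053 to 0.081 against both, -0.022 to 0.15 against floxed and -0.036 to 0.055 against Cre controls, Psmb9 -0.20 to 0.038 and Tapbp -0.14 to 0.063 against floxed controls. Between the controls they gave H2-D1 -0.034 to 0.15, B2m -0.0032 to 0.25, Tap1 -0.14 to 0.0076, Psmb8 -0.033 to 0.14, Psmb9 -0.090 to 0.15 and Psmb10 -0.042 to 0.14.

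The subunit ratios cancel the library scaling. With any single library left out, the log2 differences were 0.34 to 0.42 (Psmb8 to Psmb5), -0.67 to -0.59 (Psmb9 to Psmb6) and -0.22 to -0.07 (Psmb10 to Psmb7), and the first 2 no longer passed, since fewer libraries allow no smaller p. Replicate numbers did not pair the pools throughout: 6 of 9 same-numbered pairs correlated over 0.1 (-0.0934 to 0.524), and 4 of 9 libraries correlated best with their own number. The pairs numbered 1 correlated at 0.202 to 0.524, those numbered 2 at 0.0141 to 0.223 and those numbered 3 at -0.0934 to 0.159. With the replicate block 2393 genes were called higher and 2505 lower against both controls. With a mean of at least 5, 6 dendritic cell markers and 14 type I interferon genes were called lower, fewer of each list being tested. Dropping the scaling factor moved the median of all genes by at most -0.07. The depth limits Nlrc5 most, at 85 to 375 reads, and 3 pools per genotype limit the smallest change that can be called.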

Other observations

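The ratio of Tap2 to Tap1 normalized reads, chosen after the values were seen and given without a test, was 1.79, 2.08 and 1.99 in knockouts, against 1.53, 1.63 and 1.51 in Cre controls and 1.31, 1.48 and 1.47 in floxed controls. The genes encode the chains of the same transporter and lie within the same stretch of chromosome 17.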
